A study of Danio rerio with 6 samples.

Results

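Claudins and the other genes of the tight junction were followed between the distal late (DL) segment of the adult zebrafish kidney and the remainder of that organ. Members were taken by symbol, as any gene whose name starts with cldn, tjp, ocln, marveld, f11r or cgn, or with jam and a number, whatever the case. Reported here are 59 of the 31953 genes in the table. They were 39 claudins, 2 claudin domain genes (CLDND1 and cldnd1a, named for their sequence and not core claudins), 7 occludin and MARVEL genes, 5 junctional adhesion genes, 3 ZO scaffold genes and 3 cingulins. Counts were high enough to test in 41 of them. Another 15 had some counts, and 3 had 0 in every library.

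The tissue was the mesonephros, the kidney of adult Danio rerio, and every library came from the line Tg(slc12a3:mCherry), so both groups carry the transgene. In this line a red reporter is driven from the gene of the thiazide-sensitive sodium chloride cotransporter. The DL group held 3 libraries of DL segments, labelled mCh+, that were cut out by hand. The other group, called the rest here, held 3 libraries labelled mCh- of the mesonephros without the DL segments. It therefore mixes all other nephron segments with vessels, stroma and the blood-forming marrow of the fish kidney. The labels do not say how many fish were used, whether segments of several fish were pooled, or whether libraries of the 2 groups shared a fish. The p-values thus measure only the spread between these libraries, which may be technical. In whole tissue, fewer cells of a type and less RNA per cell cannot be told apart.

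A tight junction seals the space between neighbouring epithelial cells and sets which ions may pass there. Claudins span the membrane and form the strands, and the claudins a cell makes decide whether its junction acts as a barrier or as a pore for cations or anions. Occludin and the MARVEL proteins lie in the same strands, and junctional adhesion molecules (JAM) are immunoglobulin proteins beside them. ZO scaffolds tie the strands to actin through PDZ domains, and cingulins bind ZO proteins. In the mammalian kidney the leaky proximal tubule uses pore claudins, whereas the distal nephron is tight. Fish carry many more claudin genes than mammals, and those named by a letter without a number, such as cldnb, have no simple mammalian partner.

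The libraries held between 9320756 and 22776825 estimated counts and detected between 19413 and 21848 genes. The reporter's own gene, SLC12A3, is a check of the dissection and not a result. It stood at 251, 905 and 32.9 CPM (counts per 1000000 counts of the TMM-scaled library) in DL replicates 1, 2 and 3, and at 41.9, 30.4 and 43.0 CPM in the rest. The library labelled DL replicate 3 thus lay inside the range of the rest for this gene, so the main results are also given without it. For clcnk, bsnd, GATA3 and EMX1, other distal late genes, it lay above every rest library. It had 11.16, 5.39, 49.8 and 48.1 CPM, against at most 9.497, 3.196, 28.3 and 30.4 CPM in the rest. For TRPM6, also of that list, it lay inside the range of the rest (7.66 CPM). Whether its label is right was not tested. The 20 most abundant genes took 81.5% of the counts in both DL replicate 1 and rest replicate 3, against 37.0% to 56.8% in the others, and results are given without that pair too. In all lists of library values the replicates follow in order, DL first. Whether groups overlapped was judged on TMM-scaled CPM, except where ratios or shares of all counts are named.

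Epithelial junction genes of all roles but the claudin domain genes were among those that stood higher in the DL libraries: the claudins cldn7b, cldn3c, cldnb and cldn3d, the occludin gene oclnb, the JAM-A gene f11r.1, the scaffold gene tjp3 and the cingulin gene cgnb. These 8 had an unadjusted p under 0.05 in edgeR's quasi-likelihood test, with log2 fold changes (DL minus rest) of 1.46 to 2.32. In each of them every DL library lay above every rest library in CPM. CLDN19 and MARVELD1 stood lower, with no overlap either. The separation of the 8 leaned on the TMM factors, 0.52 in DL replicate 1 and 1.80 in rest replicate 1. As a share of all counts it did not hold for every gene. For cldn7b, DL replicate 1 had 537 of 13863861 counts, and rest replicate 1 had a larger share, 1140 of 18329049. None of the 10 passed after Benjamini-Hochberg adjustment over all 17083 genes tested. By that criterion edgeR called 0 of the 41 tested members higher and 0 lower, where the background was 0.0644% higher and 0% lower. limma-voom also called 0, against a background of 0.0351% higher. At an unadjusted p under 0.05 it was 8 of 41 higher (19.5%, background 4.09%) and 2 lower (4.88%, background 2.73%). DESeq2 called 4 of 41 higher after adjustment (9.76%, background 1.36%), namely cldn7b, cldn3c, f11r.1 and cgnb, and 0 lower (background 0.34%). In simulated data DESeq2 also called 59 of 16883 unchanged genes, against 11 by edgeR, so its calls here are less strict.

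Across the 41 tested members 26 had a positive log2 fold change (63.4%, background 46.5%), and their median was 0.70, beside -0.07 for all genes tested. In 12 members every DL library lay above every rest library (29.3%, background 6.82%), and in 2 every DL library lay below (4.88%, background 6.28%). The filter on low counts let a gene pass through its higher group alone, so these counts describe the members and are no test of them as a set. When libraries were scaled by their size alone, the median of all genes moved to -0.50 and that of the members to 0.31. At an unadjusted p under 0.05 that scaling gave 2 members higher, against 8. Without the library labelled DL replicate 3 there were 7 higher and 5 lower, and without rest replicate 3 there were 12 higher and 1 lower. The share of all genes at that p was not counted in these fits, so these shifts are no result about the members. The 8 higher members had log2 fold changes of 1.23 to 2.32 without the library labelled DL replicate 3, and of 1.69 to 2.68 without DL replicate 1 and rest replicate 3. In those fits MARVELD1 had -2.24 and -1.50, and all 10 kept their sign in each of the 14 alternatives tried. Without the library labelled DL replicate 3 the members' median was 0.67, and it was 0.91 once both DL replicate 1 and rest replicate 3 were dropped.

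**Figure D1:**
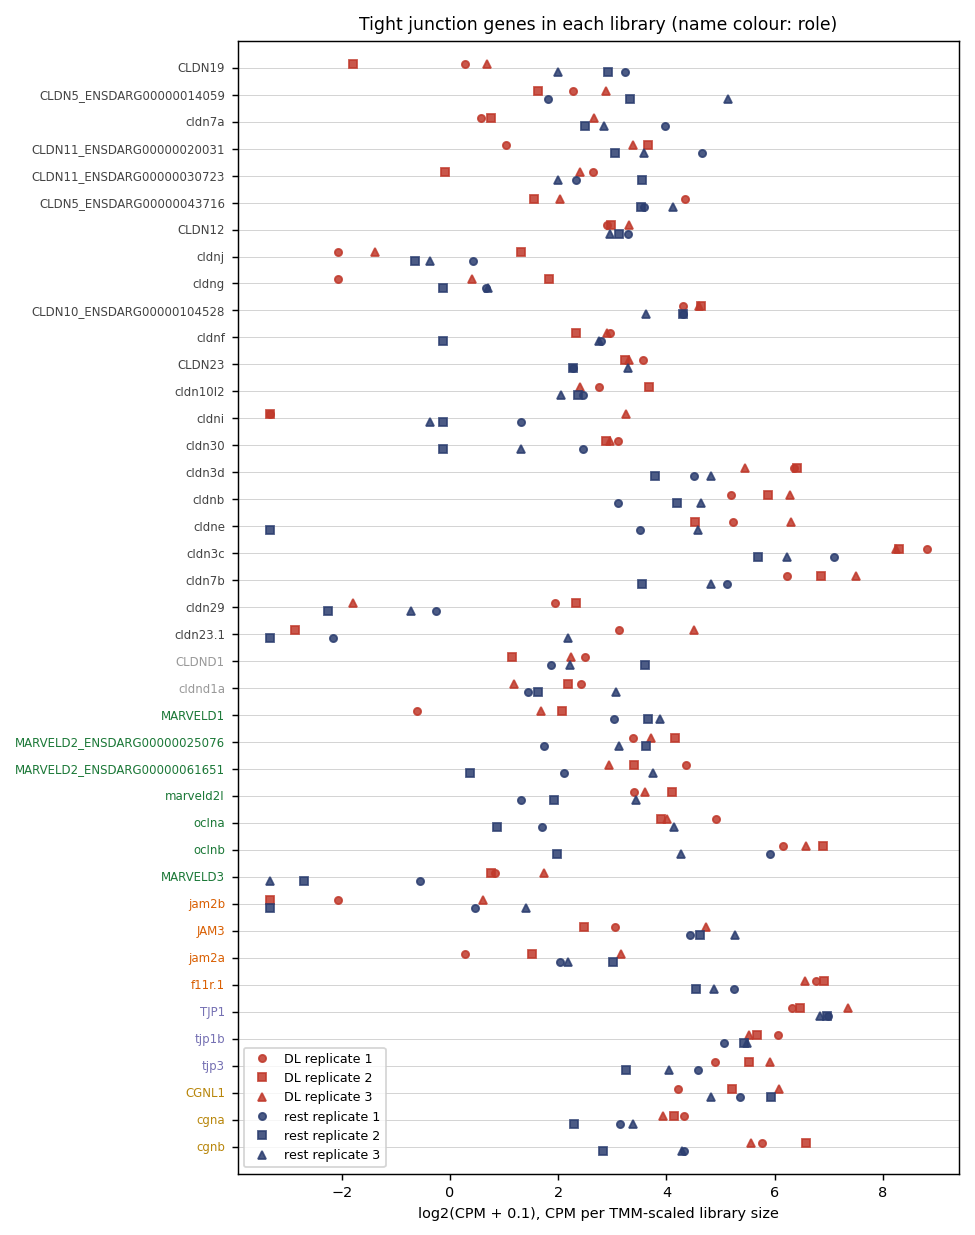
Level of each of the 41 tested members in each library, as log2(CPM + 0.1), with DL libraries in red and rest libraries in blue and a marker for each replicate. Names are coloured by role (claudins dark grey, claudin domain genes light grey, occludin and MARVEL genes green, junctional adhesion genes orange, ZO scaffolds purple, cingulins ochre), and the red points lie right of all blue ones in 12 members, cldn3c and f11r.1 among them. Levels are not scaled by gene length, so they compare libraries within a gene and not genes with each other.

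**Figure D2:**
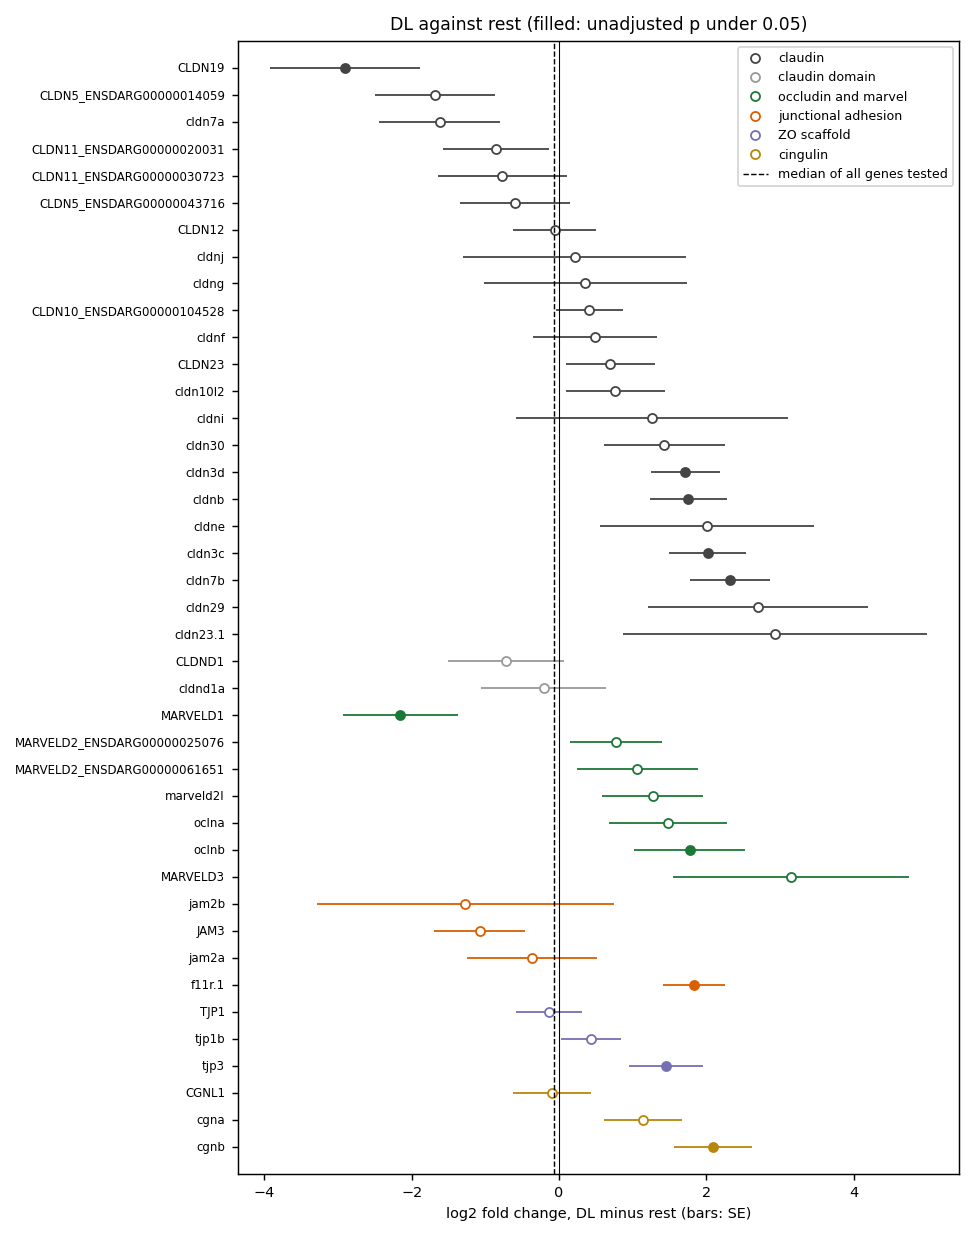
Log2 fold change of DL minus rest with its standard error for the 41 tested members, by role, from the fit over all genes. Filled points have an unadjusted p under 0.05 (8 to the right, 2 to the left), none passed after adjustment, and the dashed line is the median of all genes tested (-0.07).

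By role, 15 of the 22 tested claudins were positive (68.2%, background 46.5%), with a median of 0.59, and 4 were higher (18.2%, background 4.09%) and 1 lower (4.55%, background 2.73%) at an unadjusted p under 0.05. The other roles hold too few genes to set a share against that background. The occludin and MARVEL genes gave 6 positive of 7 (median 1.27, 1 higher and 1 lower), the junctional adhesion genes 1 of 4 (median -0.72, 1 higher), the ZO scaffolds 2 of 3 (median 0.43, 1 higher) and the cingulins 2 of 3 (median 1.14, 1 higher). The claudin domain genes gave 0 positive of 2 (median -0.46, none higher or lower). Claudins together summed to 698 to 822 CPM in the DL libraries and to 192 to 343 CPM in the rest. That separation depended on the TMM scaling: as a share of all counts the claudins took 0.0411%, 0.0811% and 0.0933% in DL and 0.0616%, 0.0288% and 0.0169% in the rest, so that rest replicate 1 lay above DL replicate 1. Markers of multiciliated cells, which also occur in the fish nephron, summed to 116 to 217 CPM in DL and to 55.2 to 165 CPM in the rest. Of these 5 of 6 were positive (83.3%, background 46.5%). Markers of proximal tubule summed to 1065 to 1516 CPM in DL and to 1006 to 2386 CPM in the rest, with 1 of 11 positive (9.09%, background 46.5%). The blood markers overlapped as well, with sums of 52.7 to 475 against 115 to 936 CPM for myeloid, 4.59 to 151 against 68.3 to 282 CPM for lymphoid and 17.8 to 646 against 70.3 to 349 CPM for erythroid genes. The 9 distal late genes, of which 6 could be tested, include SLC12A3, the check of the dissection. They summed to 155 to 1217 CPM in DL and to 68.6 to 115 CPM in the rest, lowest among DL in the library labelled DL replicate 3. SLC12A3 alone made up 905 of the 1217 CPM in DL replicate 2, so this sum is no result either. The part of these cells in the junction values was not tested.

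Among the claudins, cldn7b showed the smallest p. Claudin-7 is a claudin of the mammalian distal nephron and collecting duct that binds the adhesion protein EpCAM. The cldn7b gene (ENSDARG00000014047) stood at 74.6, 116 and 181 CPM in DL and at 34.7, 11.6 and 28.1 CPM in the rest. The highest value was that of the library labelled DL replicate 3, and the lowest DL value was still above the highest of the rest. Its log2 fold change was 2.32 ± 0.54 (SE, n = 3 each), with an adjusted p of 0.191 in edgeR and 0.00359 in DESeq2. Without the library labelled DL replicate 3 it was 1.98, and without DL replicate 1 and rest replicate 3 it was 2.68.

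The genes cldn3c (ENSDARG00000069503) and cldn3d (ENSDARG00000015955) are named after claudin-3, a sealing claudin of mammalian tubules. cldn3c stood at 448, 313 and 302 CPM in DL and at 137, 51.6 and 74.7 CPM in the rest. Its DL mean was 355 ± 81.3 CPM and its rest mean 87.7 ± 44.1 CPM (SD, n = 3 each). In TMM-scaled CPM the lowest DL library lay above the highest rest library. That gap depended on the scaling: DL replicate 1 had 3226 of 13863861 counts, and rest replicate 1 a slightly larger share, 4496 of 18329049. The log2 fold change of cldn3c was 2.01 ± 0.52, with an adjusted p of 0.258 in edgeR and 0.0054 in DESeq2. For cldn3d the values were 82.1, 85.2 and 43.6 CPM against 22.6, 13.8 and 28.1 CPM, with a log2 fold change of 1.71 ± 0.47 and an adjusted p of 0.296 (DESeq2 0.0544). Here the library labelled DL replicate 3 was the lowest of its group, and the groups did not overlap.

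The gene cldnb (ENSDARG00000009544), known in zebrafish from the skin and the lateral line, stood at 36.7, 59.0 and 77.4 CPM against 8.52, 18.1 and 24.9 CPM. Its log2 fold change was 1.75 ± 0.52 with an adjusted p of 0.356 (DESeq2 0.0864). In RefSeq's assembly GRCz12tu, used here for gene order alone, cldn3c, cldn3d, cldnb, cldn29 and cldnd follow each other with no other protein-coding gene between them, and cldn30 comes 1 gene later. Of the 5 of these that could be tested, all had positive log2 fold changes (background 46.5%). But cldn3c, cldn3d and cldnb had already been picked as higher in DL, so this count is no result about the row. cldn30 stood at 8.48, 7.26 and 7.66 CPM against 5.42, 0.812 and 2.37 CPM, without overlap, and had 1.43 ± 0.82 (edgeR adjusted p = 0.862). cldn29 stood at 3.75, 4.91 and 0.189 CPM against 0.731, 0.108 and 0.508 CPM, with the library labelled DL replicate 3 inside the range of the rest, and had 2.70 ± 1.49 (adjusted p = 0.835). The remaining gene of the row, cldnd, had counts in rest replicate 3 alone. Reads may have been split between such neighbouring copies, which makes each single value uncertain.

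Another row of neighbours in that assembly, cldnj, cldne, cldnf and cldna, had positive but less certain log2 fold changes in its 3 tested genes. With 46.5% of all genes positive, 3 genes are too few for a result about the row. The gene cldne stood at 37.4, 23.1 and 78.4 CPM in DL and at 11.3, 0 and 23.7 CPM in the rest, where rest replicate 3 lay just above the lowest DL library. Its log2 fold change of 2.01 ± 1.45 was as large as that of cldn3c but came with a wider error (edgeR adjusted p = 0.96). The genes cldnf and cldnj had 0.49 ± 0.84 and 0.21 ± 1.52 with overlapping groups. cldna was too low to test.

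CLDN19 (ENSDARG00000044569) had the most negative fold change of the members. In mammals claudin-19 works with claudin-16 in the thick ascending limb, where the pair sets the cation selectivity needed to take back calcium and magnesium. CLDN19 stood at 1.11, 0.189 and 1.51 CPM in DL, which were 8, 5 and 16 counts, and at 9.28, 7.42 and 3.90 CPM in the rest, which were 305, 137 and 23 counts. All DL libraries lay below all rest libraries. The log2 fold change was -2.90 ± 1.02, with an adjusted p of 0.506 in edgeR and 0.114 in DESeq2. It was -3.47 without the library labelled DL replicate 3. Dropping both DL replicate 1 and rest replicate 3 gave -3.35.

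Claudins known from other cell types gave overlapping groups. The 2 genes named CLDN5, after the claudin of endothelium, were tested separately. CLDN5_ENSDARG00000014059 stood at 4.72, 2.99 and 7.28 CPM in DL and at 3.41, 9.91 and 35.2 CPM in the rest (log2 fold change -1.69 ± 0.81, edgeR adjusted p = 0.768), and its highest value was in rest replicate 3 alone. CLDN5_ENSDARG00000043716 stood at 20.1, 2.83 and 3.97 CPM against 11.9, 11.5 and 17.3 CPM, so that DL replicate 1 was above the rest and the other DL libraries below it. Of 15 tested vessel endothelium markers 2 were positive (13.3%, background 46.5%). At an unadjusted p under 0.05 in edgeR 0 were higher (background 4.09%) and 0 lower (background 2.73%). Their summed level was 352 to 1399 CPM in DL and 980 to 1276 CPM in the rest, lowest in DL replicate 1 and highest in the library labelled DL replicate 3. Of 8 tested podocyte markers 1 was positive (12.5%, background 46.5%), with sums of 226 to 344 CPM in DL and 273 to 532 CPM in the rest. Although these sums overlapped, in 3 of the 8 every DL library lay below every rest library (37.5%, background 6.28%). These were NPHS1, ptpro and MAGI2_ENSDARG00000021590. Claudin-5 is also a claudin of mammalian podocytes. The part of these cells in the claudin values was not tested.

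The 2 genes named CLDN11, after a claudin of myelin and of Sertoli cells, had -0.85 ± 0.72 and -0.77 ± 0.88. CLDN12 had -0.06 ± 0.57, and its 6 libraries stood within 7.36 and 9.74 CPM. CLDN10_ENSDARG00000104528, named after the mammalian claudin whose isoforms form cation or anion pores, stood at 19.6, 24.8 and 24.3 CPM against 19.8, 19.7 and 12.2 CPM (0.41 ± 0.46, edgeR adjusted p = 0.999). cldn23.1 shows how a large fold can rest on scattered libraries: it stood at 8.61, 0.0378 and 22.8 CPM against 0.122, 0 and 4.41 CPM, with a log2 fold change of 2.93 ± 2.06. Likewise cldni, a gene of fish surface epithelium, stood at 9.46 CPM in the library labelled DL replicate 3 and had 0 counts in the other DL libraries. In the rest it stood at 2.37, 0.812 and 0.678 CPM, and its log2 fold change was 1.26 ± 1.84.

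The claudin domain genes did not separate the groups either. CLDND1 stood at 5.56, 2.12 and 4.63 CPM in DL and at 3.53, 12.0 and 4.57 CPM in the rest (-0.72 ± 0.79, edgeR adjusted p = 0.999). cldnd1a stood at 5.28, 4.46 and 2.17 CPM against 2.62, 2.98 and 8.30 CPM (-0.21 ± 0.85, adjusted p = 0.999), and its sign turned in 4 of 14 alternatives.

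Several claudins that mark particular epithelia in other settings were barely present in either group. CLDN2, the pore claudin of the mammalian proximal tubule, had 0 counts in all 6 libraries, as had cldn26 and CLDN10_ENSDARG00000058937. A count of 0 allows a level of up to 0.0342 CPM, unscaled, over the 6 libraries together (3 counts), by counting error alone. CLDN8, named after a barrier claudin of the mammalian distal nephron and collecting duct, had 11 counts in 4 libraries, and cldn8.2 had 1. Of the 15 members with counts but no test, 8 had them in 1 library alone, such as cldn10d with 41 counts in DL replicate 2, cldn33b with 23 in rest replicate 1 and the gut gene cldn15la with 6 in rest replicate 3. The highest was cldn10e at 3.73 CPM in rest replicate 3. Of the 15, 8 peaked in a DL library and 7 in a rest library. The oligodendrocyte gene cldnk, the stomach gene cldn18 and f11r.2 were also among them.

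The occludin and MARVEL genes pointed upward apart from MARVELD1. oclnb (ENSDARG00000003091) is a copy of the occludin gene, and stood at 71.1, 119 and 95.3 CPM in DL and at 60.6, 3.84 and 19.1 CPM in the rest. The groups did not overlap, but rest replicate 1 came close to the lowest DL library. Its log2 fold change was 1.77 ± 0.76 (edgeR adjusted p = 0.665), and 3.08 without rest replicate 1 (adjusted p = 0.144). The other copy, oclna, stood at 30.2, 14.8 and 16.0 CPM against 3.17, 1.73 and 17.5 CPM, with rest replicate 3 inside the range of DL (1.47 ± 0.80, adjusted p = 0.83). Without rest replicate 3 its log2 fold change was 3.05 (adjusted p = 0.467), and without that library and DL replicate 1 it was 2.65.

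Tricellulin, the protein of MARVELD2, seals the points where the corners of several cells meet. The genes MARVELD2_ENSDARG00000025076, MARVELD2_ENSDARG00000061651 and marveld2l had log2 fold changes of 0.77 ± 0.62, 1.06 ± 0.82 and 1.27 ± 0.69, all with overlapping groups. MARVELD3, a further strand protein, stood at 1.67, 1.59 and 3.22 CPM against 0.578, 0.0542 and 0 CPM. Its groups did not overlap, yet with 20 counts in all rest libraries the error was wide (3.15 ± 1.60, edgeR adjusted p = 0.795).

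MARVELD1 (ENSDARG00000011724), a MARVEL protein that is not a classical strand component, stood at 0.556, 4.08 and 3.12 CPM in DL and at 8.10, 12.6 and 14.6 CPM in the rest. Every DL library lay below every rest library, with a log2 fold change of -2.15 ± 0.78 and an adjusted p of 0.53 in edgeR and 0.195 in DESeq2. Of the 12 stromal marker genes tested, 12 were negative and 0 positive (background 46.5% positive). At an unadjusted p under 0.05, 6 were lower (50%, background 2.73%). Their summed level was 272 to 2153 CPM in DL and 1568 to 3784 CPM in the rest. The highest DL sum was in DL replicate 1. MARVELD1 had 4, 108 and 33 counts in the DL libraries and 266, 232 and 86 in the rest. The part of stroma in the CLDN19 and MARVELD1 values was not tested.

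Among the junctional adhesion genes f11r.1 (ENSDARG00000017320) stood apart from the JAM genes proper. It encodes JAM-A, the JAM of epithelial tight junctions. It stood at 109, 119.9 and 93.7 CPM in DL and at 37.7, 23.2 and 29.5 CPM in the rest. Its DL libraries varied little in TMM-scaled CPM (107 ± 13.1 CPM, against 30.1 ± 7.27 CPM, SD, n = 3 each). As a share of all counts DL replicate 1 (782 of 13863861) lay below rest replicate 1 (1238 of 18329049). The log2 fold change of 1.83 ± 0.42 had the smallest unadjusted p of the members (0.00105), with an adjusted p of 0.186 in edgeR and 0.00603 in DESeq2. It was 1.96 without the library labelled DL replicate 3, and 1.82 after dropping both DL replicate 1 and rest replicate 3.

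JAM-B and JAM-C, the proteins of jam2 and jam3, hold endothelial cells and, in zebrafish, fusing muscle cells together. JAM3 stood at 8.20, 5.48 and 26.3 CPM in DL and at 21.4, 24.6 and 38.3 CPM in the rest. The library labelled DL replicate 3, which also had the highest endothelial marker sum, lay inside the range of the rest, and the log2 fold change was -1.08 ± 0.62 (edgeR adjusted p = 0.861). Without that library it was -2.00 with an adjusted p of 0.323. The genes jam2a and jam2b had -0.37 ± 0.88 and -1.27 ± 2.02 with overlapping groups.

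Among the ZO scaffolds tjp3 separated the groups. The ZO-3 gene tjp3 (ENSDARG00000002909), whose protein is found in epithelia in mammals, stood at 29.6, 46.3 and 60.4 CPM against 23.9, 9.37 and 16.4 CPM (1.46 ± 0.50, adjusted p = 0.49, DESeq2 0.219).

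The ZO-1 genes gave small differences. TJP1 stood at 79.5, 88.0 and 164 CPM in DL and at 127, 124 and 114 CPM in the rest (-0.14 ± 0.45, edgeR adjusted p = 0.999). Its sign turned in 3 of 14 alternatives. tjp1b stood at 66.4, 50.9 and 46.0 CPM against 33.1, 42.9 and 45.1 CPM, a step without overlap but small (0.43 ± 0.41, adjusted p = 0.991), and scaling by library size alone gave it a log2 fold change of -0.02.

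Of the cingulin genes, cgnb (ENSDARG00000058690) stood at 54.0, 96.0 and 47.2 CPM in DL and at 19.97, 7.04 and 19.5 CPM in the rest. DL replicate 2 was the highest and no libraries of the 2 groups overlapped. The log2 fold change was 2.09 ± 0.53, with an adjusted p of 0.245 in edgeR and 0.0181 in DESeq2. cgna followed at 19.9, 17.4 and 15.1 CPM against 8.74, 4.82 and 10.3 CPM, also without overlap (1.14 ± 0.53, adjusted p = 0.743). Paracingulin, the protein of CGNL1, is also found at adherens junctions. CGNL1 stood at 18.3, 36.8 and 67.1 CPM against 41.1, 61.2 and 28.1 CPM (-0.09 ± 0.53, adjusted p = 0.999), and its sign turned in 3 of 14 alternatives.

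Genes with the same base name were then compared within each library, where the scaling of libraries cancels and gene length cancels between libraries. The 15 pairs were those whose members could both be tested, and this comparison was added after values had been seen. With 3 libraries against 3 the exact two-sided permutation test allows no p below 0.1, so no pair could pass. The widest shift was that of the claudin-7 copies. There were 0.0195, 0.0138 and 0.0347 cldn7a counts for each cldn7b count in DL, and 0.452, 0.476 and 0.255 in the rest, a difference in mean log2 ratio of -4.17 (exact p = 0.1, 0.5 after Benjamini-Hochberg over the 15 pairs). The cldn7a gene alone stood at 1.39, 1.59 and 6.24 CPM in DL and at 15.7, 5.52 and 7.12 CPM in the rest (-1.62 ± 0.83, edgeR adjusted p = 0.797). The groups overlapped for cldn7a, but not for the ratio.

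Ratios of cgna to cgnb were 0.368, 0.182 and 0.322 against 0.438, 0.683 and 0.531, a difference of -0.96. For cgnb over CGNL1 they were 2.94, 2.61 and 0.703 against 0.486, 0.115 and 0.694, a difference of 2.37 in which the library labelled DL replicate 3 almost met rest replicate 3. Both pairs also did not overlap (exact p = 0.1 each, adjusted 0.5). Each pair without overlap held cldn7b or cgnb, which had already been picked as higher in DL. These shifts thus follow in part from that choice. The other 12 pairs overlapped, the copies of CLDN5, CLDN11, CLDN10, claudin-3, occludin and MARVELD2 among them. For cldn3c over cldn3d the ratio was between 2.65 and 6.93 in all 6 libraries.

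**Figure D3:**
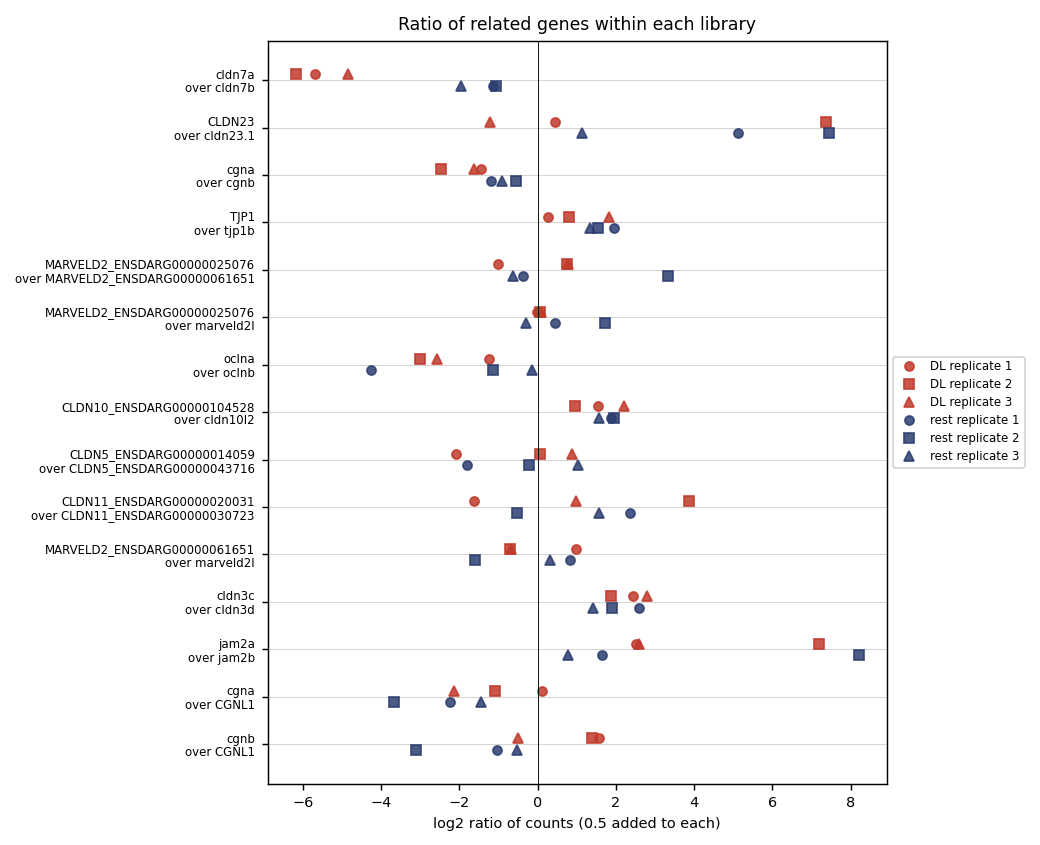
Log2 ratio of the counts of related genes within each library, with 0.5 added to each count, for 15 pairs ordered by the difference between groups (DL red, rest blue, a marker for each replicate). Red and blue separate for cldn7a over cldn7b, cgna over cgnb and cgnb over CGNL1, and mix in the other 12 pairs. Levels are not scaled by length, so the position of a pair on the axis has no meaning, only the shift between groups.

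The 10 members with an unadjusted p under 0.05 were also set against cdh1, the gene of E-cadherin, an adhesion protein of epithelial cells. This denominator was chosen after values had been seen, and the ratios are a description. The cdh1 gene itself stood at 390, 424 and 395 CPM in DL and at 132, 40.9 and 164 CPM in the rest, a log2 fold change of 1.85 ± 0.57 (edgeR adjusted p = 0.386, DESeq2 0.0355). Per cdh1 count there were 1.15, 0.738 and 0.766 cldn3c counts in DL and 1.04, 1.26 and 0.457 in the rest. For cldn7b there were 0.191, 0.275 and 0.459 against 0.264, 0.285 and 0.172, and for f11r.1 0.279, 0.283 and 0.237 against 0.286, 0.567 and 0.181. All 8 members that stood higher in DL by CPM had overlapping groups by this ratio, with differences in mean log2 ratio from -0.57 (tjp3) to 0.43 (oclnb). With CDH17, a cadherin of kidney epithelium, as the denominator the differences were -1.11 to -0.12. Both denominators were themselves higher in DL, as were the 8 members by selection. Smaller differences by these ratios thus follow from the choice of genes.

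CLDN19 and MARVELD1 had been picked as lower in DL, where cdh1 was higher, so a wider gap by this ratio follows from the choice of genes. CLDN19 had 0.00287, 0.000502 and 0.00399 counts per cdh1 count in DL and 0.0706, 0.182 and 0.0241 in the rest, a difference of -5.24 in mean log2 ratio. For MARVELD1 the ratios were 0.0016, 0.00967 and 0.00802 against 0.0616, 0.308 and 0.0895, a difference of -4.58.

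**Figure D4:**
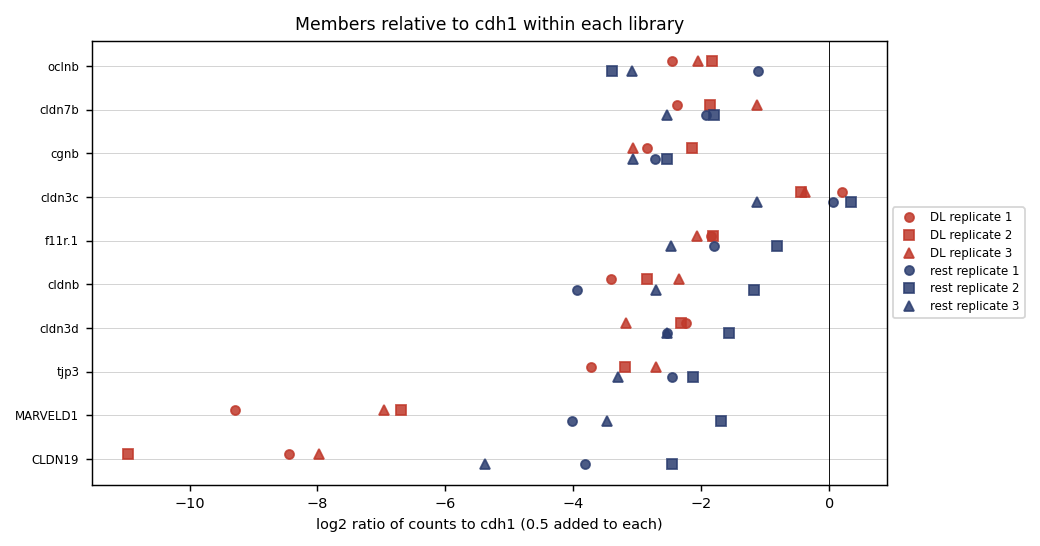
Log2 ratio of the counts of 10 members to those of cdh1 within each library, with 0.5 added to each count (DL red, rest blue, a marker for each replicate). The 8 upper genes mix the groups, with differences in mean log2 ratio from -0.57 to 0.43, and for MARVELD1 and CLDN19 all red points lie left of all blue points.

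Genes that work with the tight junction were listed by role and matched to 101 genes in the table, of which 92 could be tested. The list was drawn up with earlier results of these data known. Shares of it, or of its parts, beside the background are thus a description and no test. At an unadjusted p under 0.05 edgeR gave 19 higher (20.7%, background 4.09%) and 2 lower (2.17%, background 2.73%). Without the library labelled DL replicate 3 these were 19 and 10, where the share over all genes was not counted. In the main fit 1 was higher after adjustment over all genes, TFAP2B (background 0.0644%), and DESeq2 called 9 (9.78%, background 1.36%). Of the 20 tested genes of tricellular contact and adhesion, 11 were higher at that unadjusted p (55.0%, background 4.09%) and 0 lower. They included, chosen after their values were seen, lsr and ildr1b, genes of angulins, which bring tricellulin to its place. Their log2 fold changes were 1.68 ± 0.65 and 1.49 ± 0.60. The related genes ildr1a and ILDR2 of that list were not among the 11 and had overlapping groups (1.49 ± 0.78 and -0.57 ± 0.94, edgeR adjusted p = 0.813 and 0.999). The 11 also included the serine protease inhibitors spint1a and spint2, which guard EpCAM and claudin-7 from cleavage in mammals. spint1a stood at 47.2, 47.6 and 46.5 CPM against 15.0, 7.85 and 7.62 CPM (2.20 ± 0.47, adjusted p = 0.146), and spint2 at 158, 117 and 50.5 CPM against 22.6, 11.4 and 13.6 CPM (2.77 ± 0.54, adjusted p = 0.103). DESeq2 gave them adjusted p-values of 0.00288 and 0.000159. The serine protease genes st14a and st14b of the same list were positive too, with 1.88 ± 0.67 and 1.91 ± 0.95 (edgeR adjusted p = 0.515 and 0.786). Of these protease genes st14a was among the 11, whereas st14b was not and had overlapping groups (edgeR unadjusted p = 0.0683). The list thus held inhibitor genes and a protease gene, st14a, higher at an unadjusted p under 0.05.

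The EpCAM gene epcam, whose protein binds claudin-7, stood at 92.7, 254 and 613 CPM in DL and at 57.9, 42.3 and 94.5 CPM in the rest. DL replicate 1 lay just below rest replicate 3, so the groups overlapped. The log2 fold change was 2.30 ± 0.67 (edgeR adjusted p = 0.348, DESeq2 0.0176). The cadherin gene CDH17 had 2.65 ± 0.74 (adjusted p = 0.306, DESeq2 0.0016).

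The polarity genes, whose Par and Crumbs complexes place the junction, gave 0 higher (background 4.09%) and 1 lower (4.55%, background 2.73%) of 22 tested at an unadjusted p under 0.05, a share near the background. The lower one, pard3bb, stood at 15.0, 13.3 and 29.5 CPM against 35.2, 38.7 and 44.1 CPM (-1.03 ± 0.47, edgeR adjusted p = 0.724). Of 26 scaffold and actin genes 3 were higher (11.5%) and 1 lower (3.85%), beside the same background. The lower one, a copy of the vinculin gene (VCL_ENSDARG00000044968), stood at 0.973, 0.378 and 1.89 CPM against 4.84, 1.62 and 12.5 CPM (-2.55 ± 1.08, adjusted p = 0.662).

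Among 24 tested regulators 5 were higher (20.8%, background 4.09%) and 0 lower (background 2.73%) at an unadjusted p under 0.05. The list was not shifted as a whole: 12 of 24 were positive (50%, background 46.5%), with a median of 0.01. In 7 every DL library lay above every rest library (29.2%, background 6.82%), and in 2, zeb1a and ZEB1, every one lay below (8.33%, background 6.28%). The log2 fold changes of zeb1a and ZEB1 were -1.11 ± 0.54 and -0.96 ± 0.50 (edgeR adjusted p = 0.775 and 0.806). TFAP2B, an AP-2 transcription factor gene, stood at 94.8, 130.03 and 20.7 CPM in DL and at 2.71, 1.03 and 2.88 CPM in the rest (5.23 ± 0.76, edgeR adjusted p = 0.0419). This call ended in 8 of 14 alternatives, among them leaving out DL replicate 1, DL replicate 2 or any of the rest libraries. TFAP2A had 2.63 ± 0.63, the epithelial splicing regulator gene ESRP1 had 2.96 ± 0.60 and the epithelial factor gene ELF3 had 2.30 ± 0.59, each uncalled by edgeR (adjusted p = 0.201, 0.121 and 0.258) and called by DESeq2 (0.00342, 0.000268 and 0.00586). GRHL2, also chosen after its values were seen, is a grainyhead factor gene known in mammals for turning on claudin genes, and had 2.26 ± 0.86 (adjusted p = 0.567). The related gene grhl2a had -0.40 ± 1.69 with overlapping groups (edgeR adjusted p = 0.999).

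**Figure D5:**
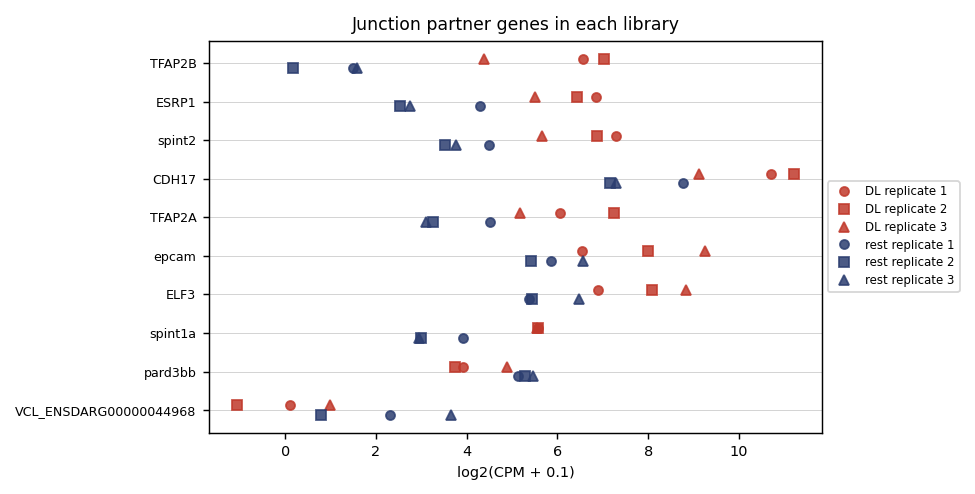
Level of the 10 named junction partner genes in each library as log2(CPM + 0.1), ordered by log2 fold change (DL red, rest blue, a marker for each replicate). Red points lie right of all blue points in TFAP2B, ESRP1, spint2, CDH17, TFAP2A, ELF3 and spint1a, and left of them in pard3bb.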

How the data were processed

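RNA was taken by the submitters from hand-dissected tissue with a column kit (Macherey-Nagel) and turned into cDNA libraries by the NuGEN Ovation Single Cell kit, per the labels' protocols. The authors deposited 1 table of estimated counts for 31953 Ensembl genes in 6 libraries, written to 4 significant digits. An aligner, counter, genome build or strand setting is not given in the sources used here; reads of near-identical copies, overlapping genes or antisense genes therefore cannot be told apart. Symbols came from the supplied name table and covered 26121 IDs. Where several IDs share a symbol, the ID follows the name.

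The expected counts were rounded to whole numbers and fitted in R 4.3.3 with edgeR 4.0.16: filterByExpr, TMM scaling, and the robust quasi-likelihood F test of DL against rest over 17083 genes, with Benjamini-Hochberg adjustment and a threshold of 0.05. A standard error is the log2 fold change divided by the square root of F. Alternatives were DESeq2 1.42.0, limma-voom (limma 3.58.1) with sample weights, other scalings and filters, and left-out libraries. Replicates within a group were numbered in accession order, which pairs nothing. Total counts per library set the precision of counting, while the spread between libraries also enters each standard error. Limits from 0 counts cover counting error only. Fits were checked on simulated data. After adjustment edgeR called 6 of 50 genes changed 4-fold, DESeq2 16 and limma-voom 3, so most changes of that size were missed. Of 16883 unchanged genes edgeR called 11, DESeq2 59 and limma-voom 6. No sequence was printed.

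One gene symbol that the member rule also matched is not reported here and stays out of every count of members. The members, lists and tests were chosen with earlier results of these data known. Values in every library were given for SLC12A3, for members with an unadjusted p under 0.05 and for the 2 most abundant of each role. Partners were named at an unadjusted p under 0.05, at most 8 in each direction by the smallest p, which left 8 higher and 2 lower. Other genes, among them further claudins, the distal late genes besides SLC12A3, lsr, ildr1a, ildr1b, ILDR2, st14a, st14b, GRHL2, grhl2a, zeb1a, ZEB1 and cdh1, and all ratios were chosen after values were seen. Gene lengths were not used, so levels were not compared between genes.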

Additional observations from a re-analysis of the deposited data

How the results depend on the processing

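No paired analysis was possible because the labels give no replicate numbers that the groups share, and pairs taken from the order of the libraries would be a guess. For tight junction genes called higher after adjustment (0 in the main result, and 0 with any library left out), DESeq2 gave 4 and no low-count filter gave 1, cldn7b. Over all genes the main fit called 11 higher, DESeq2 233 and the fit with no low-count filter 99. Leaving out the library labelled DL replicate 3 gave 51 over all genes, and leaving out any other single library 0. For those higher at an unadjusted p under 0.05 (8), library size as the only scaling gave 2, limma-voom 15, and leaving out 1 library 6 to 12. For those lower (2), no filter gave 4 and leaving out 1 library gave 1 to 5. For partners called higher after adjustment (1), DESeq2 gave 9, no filter 4, library size only, limma-voom and leaving out DL replicate 1 with rest replicate 3 gave 0 each, and leaving out 1 library 0 to 2. Partners at an unadjusted p (19 higher, 2 lower) came to 7 and 0 with library size only. Leaving out DL replicate 1 with rest replicate 3 gave 1 partner lower. Leaving out the library labelled DL replicate 3 gave 10 lower, and leaving out any other single library gave 0 or 1. At an unadjusted p the share over all genes was counted in the main fit alone, so these counts have no background.

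Small log2 fold changes turned sign. CGNL1 had 0.029 and TJP1 0.0039 without DL replicate 1 and rest replicate 3, where cldnd1a had 0.27. cldnd1a had 0.088 with limma-voom, and tjp1b -0.024 with library size only. With 1 library left out CGNL1 ranged from -0.62 to 0.29, TJP1 from -0.51 to 0.088, CLDND1 from -1.03 to 0.020 and cldnd1a from -0.49 to 0.52. Of the fold changes of named genes under alternatives, 354 kept direction and side of the threshold, 18 gained a call, 8 lost one and 12 turned. The causes were not tested. Low counts limit the precision for members such as MARVELD3 and cldn29.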
